A study of Mus musculus with 69 samples.

Results

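The control females of this mouse liver series carry animal codes in separate stretches of numbers, F682 to F695 and F651 to F659. The comparison described here set the 9 control females F682-F695 against the 7 control females F651-F659, which together make up all 16 control females among the 69 mice of the series. Arrays were assigned to a set by the animal code alone and by no measured value, though earlier results of these data were known. All 16 were female C57BL6/J mice killed at 25 months of age, and all had eaten the control diet, chow that held the empty Eudragit capsule material. No rapamycin was given to either set, so the comparison asks which liver transcripts vary between stretches of animal numbers without the drug. The labels give no cage, day of collection, chip or scan for these codes, and a set is therefore called only a run of animal numbers here. Each mouse gave 1 array of total RNA from liver, so animal and array cannot be told apart. Other groups serve for comparison below, namely 21 Rapa females, fed 14 ppm rapamycin from 4 months of age for 21 months, the control males M716-M730 (n = 12) and M366-M374 (n = 7), and the Rapa-2 (n = 6) and Rapa-1 (n = 7) males on the same rapamycin diet. The mice of these other groups were also C57BL6/J mice killed at 25 months of age. The study drew the division of the Rapa males from the expression values of these arrays.

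The liver sets its gene expression by feeding state, time of day and inflammation, so that untreated animals can differ in genes of lipid synthesis, the clock and the acute phase. Hepatocytes make most of the RNA, and the remainder comes from endothelial, Kupffer, stellate, bile duct and blood cells. Rapamycin, the drug of the wider study, inhibits mTORC1, a kinase complex that promotes protein synthesis and restrains autophagy, and that is switched on by the small GTPase Rheb and held back by the Tsc1-Tsc2 complex.

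Labels and tissue were checked first. Xist, which coats and silences 1 X chromosome in female cells, lay between 7.54 and 8.22 log2 signal on the F682-F695 arrays and between 7.65 and 7.99 on the F651-F659 arrays, against a mean of 6.72 in control males M716-M730 and 6.70 in control males M366-M374. The Y-linked Eif2s3y averaged 6.43 in F682-F695 and 6.48 in F651-F659. Ttr, which encodes transthyretin, lay between 14.25 and 14.80 in F682-F695 and between 14.15 and 15.00 in F651-F659, and the apolipoprotein gene Apoa1 did not fall below 14.82 on any of the 16 arrays. The tested probe of Alb was dim, at 6.71 to 7.22 in F682-F695 and 6.84 to 7.12 in F651-F659. Of 16 hepatocyte markers written down, 12 were tested, and 1 of them passed the test described below. In bulk liver, fewer cells of a type and less RNA per cell cannot be told apart.

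The arrays of the runs differed before any scaling. The signal at which the brightest 0.1% of probes begin was 26110 ± 1658 in F682-F695 and 29860 ± 1818 in F651-F659 (SD, n = 9 and 7, exact two-sided permutation p = 8.7e-04 over all splits of the 16 arrays, 0.00262 after Benjamini-Hochberg adjustment over 3 measures). The share of probes detected was 42.8% ± 1.49 in F682-F695 and 44.7% ± 1.86 in F651-F659 (exact permutation p = 0.0427, adjusted 0.064). The median raw signal was 106 ± 7.43 in F682-F695 and 102 ± 8.37 in F651-F659 (exact permutation p = 0.333). Several arrays stood apart within a run. F653 and F694 had the highest scores on the first principal component, 42.1 and 35.9, which carried 38.9% of the variance and on which S100a8, S100a9 and Ltf weighed most at the positive end. F652 lay at -45.6 on the second component (18.6% of the variance).

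Probes of Actb, the gene of cytoplasmic actin, disagreed between the runs. The brightest of its 5 tested probes averaged 13.37 ± 0.27 in F682-F695 and 13.00 ± 0.24 in F651-F659 (log2 difference 0.37 ± 0.12 SE, adjusted p = 0.0819). The 2 dimmest probes averaged 9.59 and 9.47 in F682-F695, against 8.30 and 8.27 in F651-F659, and both passed, with log2 differences of 1.29 and 1.20 (adjusted p = 0.038 and 0.037). Averaged over these 2 probes, F651 stood at 7.30 and F653 at 6.83, while the other arrays of F651-F659 lay between 8.39 and 9.21. In F682-F695 the lowest was F694 at 8.36, and the rest lay between 9.23 and 10.08. These probes were singled out after their values had been seen, and where each probe lies in the transcript is not given in the sources used here. Fits without F651 and F653 and with the probes as a covariate are given below, but the part of these probes in the differences was not tested.

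**Figure D1:**
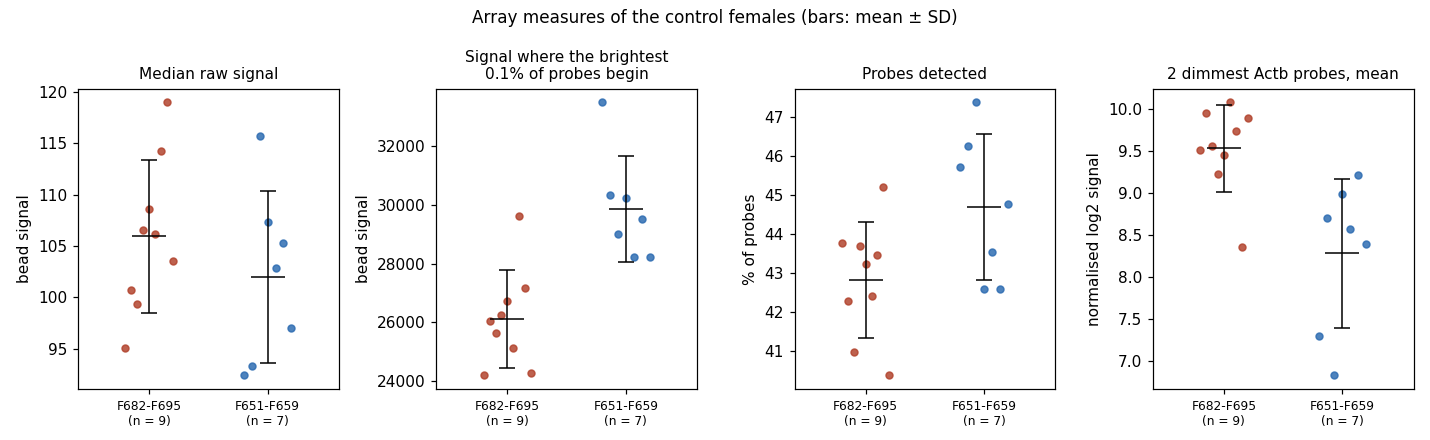
Raw array measures and the mean of the 2 dimmest Actb probes (log2) for the 9 control females F682-F695 (red) and the 7 control females F651-F659 (blue), with mean and SD as bars. The brightest probes began at lower signal in F682-F695 (26110) than in F651-F659 (29860), and F651 and F653 had the lowest values of the dim Actb probes.

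After quantile normalisation, 650 of 12442 tested transcripts (5.22%) differed between the runs by limma with a Benjamini-Hochberg adjusted p below 0.05 and a difference above 15%, as the study's methods set them. Of these, 209 were higher (1.68% of those tested) and 441 lower (3.54%) in F682-F695 than in F651-F659. At an unadjusted p under 0.05 there were 2816, and the smallest adjusted p was 0.00848. Most differences were modest: the median size among the 650 was 0.35 on the log2 scale, 46 exceeded 1.5-fold and 4 exceeded 2-fold. Taking the brightest tested probe for each of 8729 genes, 137 genes (1.57%) were higher and 308 (3.53%) lower in F682-F695. For 94 genes (1.08%), passed or not, the 9 values of one run and the 7 of the other did not overlap.

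The count changed with the arrays included. It lay between 322 and 788 with single arrays left out, and fell to 322 without F659, 325 without F651, 338 without F695, 410 without F692 and 429 without F689. Without F651 and F653 together, a choice made after seeing the data, 89 transcripts passed, 17 higher and 72 lower, and 88 of them were among the 650. With the signal of the brightest probes, the share of probes detected or the dim Actb probes as a covariate, 0 passed. Each of these measures moved with the run, so such a fit cannot separate the run from the measure. With median scaling in place of quantile normalisation, 3155 passed and only 0.634% of them were higher in F682-F695, against 32.2% of the 650, and that scaling moved the median difference of all tested transcripts by -0.169. Directions below are those after quantile normalisation, in which the median difference of all transcripts was 0.01.

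**Figure D2:**
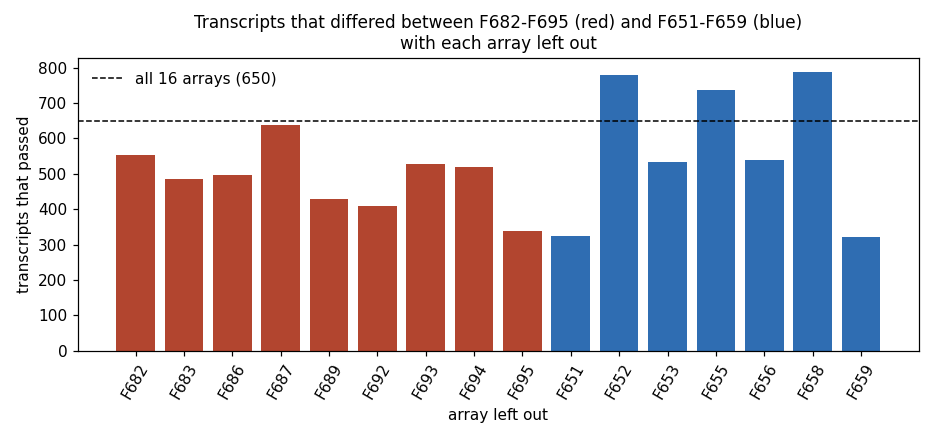
Number of transcripts that passed between F682-F695 and F651-F659 when each array named on the horizontal axis was left out (red, arrays of F682-F695; blue, arrays of F651-F659; dashed line, 650 with all 16 arrays). The count ranged from 322 without F659 to 788 without F658.

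Promoters of 4 genes that the results turn on are shown, as the 130 bases upstream of the RefSeq start site in mouse assembly GRCm38.p6, all on the minus strand and written 5′ to 3′ along the gene. Thrsp and Gamt had the largest rises among genes that passed, Hsp90b1 is the chaperone gene that fell, and Rheb is the mTORC1 activator that fell. Capitals mark the motifs searched on both strands, which were the E-box CACGTG, the CCAAT box CCAAT, the TATA box TATAAA and the endoplasmic reticulum stress element, which is CCAAT, any 9 bases and then CCACG and so holds a CCAAT box itself.
Thrsp, chr7:97417551-97417680: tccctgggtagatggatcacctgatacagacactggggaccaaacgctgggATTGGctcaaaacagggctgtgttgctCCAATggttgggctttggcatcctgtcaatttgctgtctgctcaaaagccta
Gamt, chr10:80261013-80261142: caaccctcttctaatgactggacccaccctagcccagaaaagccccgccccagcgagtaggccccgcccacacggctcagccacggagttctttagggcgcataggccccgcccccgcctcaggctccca
Hsp90b1, chr10:86705445-86705574: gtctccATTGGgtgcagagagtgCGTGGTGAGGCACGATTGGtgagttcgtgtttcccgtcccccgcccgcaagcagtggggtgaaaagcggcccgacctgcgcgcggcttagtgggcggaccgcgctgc
Rheb, chr5:24842362-24842491: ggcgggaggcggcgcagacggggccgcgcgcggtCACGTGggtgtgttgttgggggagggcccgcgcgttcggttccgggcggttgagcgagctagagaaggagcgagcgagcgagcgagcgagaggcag
Over the 250 bases upstream, Hsp90b1 held 2 stress elements, which 11 of 7117 promoters of tested genes hold at least once (0.155%). Rheb held an E-box (8.42% of promoters hold one) and Thrsp 2 CCAAT boxes (36.8% hold one), and Gamt held none of the motifs. These are matches of letters, not measured binding sites.

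Thrsp and Gamt led the genes that were higher in F682-F695. Thrsp encodes Spot 14, a nuclear protein of lipogenic tissue that promotes fatty acid synthesis. Its levels on the F682-F695 arrays ran from 10.62 through a median of 11.90 to 13.02, against 8.42, 10.71 and 11.42 as the lowest, median and highest of F651-F659. The log2 difference was 1.54 ± 0.44 (SE), a 2.92-fold rise with adjusted p = 0.049, and all 9 F682-F695 arrays lay above the F651-F659 mean although the runs overlapped. Gamt, whose enzyme makes creatine from guanidinoacetate, ran from 11.68 through 12.25 to 12.99 in F682-F695 and from 8.26 through 11.02 to 11.89 in F651-F659 (log2 difference 1.43 ± 0.40, adjusted p = 0.0481). F652 was the lowest array for both genes. Without it the log2 differences were 1.22 for Thrsp (adjusted p = 0.0645) and 0.99 for Gamt (adjusted p = 0.0159). The call held in 4 of 16 fits with 1 array left out for Thrsp and in 3 of 16 for Gamt. Both calls were also lost after median scaling, at 1.20 for Thrsp (adjusted p = 0.0506) and 1.11 for Gamt (adjusted p = 0.0587), and after neqc background correction, where the differences were no smaller than those above but the adjusted p was 0.0504 for Thrsp and 0.0545 for Gamt.

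The other 10 of the 12 highest genes included genes of plasma proteins, transport and metabolism. Selenop, which encodes the selenium carrier of plasma, averaged 13.82 ± 0.27 in F682-F695 and 12.97 ± 0.46 in F651-F659, and its call held in all 16 fits with 1 array left out. Its second, dimmer probe went the other way, with a log2 difference of -0.17 that did not pass (adjusted p = 0.368). F10, the gene of coagulation factor X, averaged 13.02 ± 0.23 in F682-F695 and 12.45 ± 0.21 in F651-F659, a difference of 0.57 ± 0.11 (adjusted p = 0.0106). Slc38a3, a glutamine transporter gene, rose by 0.69, and Gpd1, which links glycolysis to glycerolipid synthesis, by 0.66. Vnn3, a member of the vanin family of pantetheinases, rose by 0.76, and its second probe by 0.75 (adjusted p = 0.0356 for both). Rac1, a GTPase that controls actin, rose by 0.56, again in all 16 fits with 1 array left out. Snai3 (0.91), Fam126a (0.70), Zer1 (0.58) and Tsc2 (0.55) completed the group, and Snai3 rose above the F651-F659 mean on 8 of 9 arrays rather than all 9. Of the 12 genes, 4 (Selenop, Fam126a, F10 and Rac1) kept the call with each array left out in turn, and none kept it without F651 and F653, where Selenop gave 0.75 (adjusted p = 0.0634), F10 0.49 (adjusted p = 0.0539) and Rac1 0.48 (adjusted p = 0.0625). After median scaling Selenop, Snai3 and Rac1 passed and the other 9 of the 12 did not, with F10 at 0.25 (adjusted p = 0.109). Snai3 was dim, at 7.873 in F682-F695 and 6.965 in F651-F659, where Y-linked Uty averaged 7.055 and 7.044. Its call held in 3 of 16 fits with 1 array left out.

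Among the 12 lowest, every F682-F695 array lay below the F651-F659 mean for every gene. Eif3a, the largest subunit of the initiation factor that readies the small ribosomal subunit, had values of 8.02 to 8.71 with a median of 8.55 in F682-F695, against 8.83 to 9.64 with a median of 9.22 in F651-F659. The runs did not overlap, and the log2 difference was -0.75 ± 0.12 (adjusted p = 0.00848). Wfdc21, a small secreted protein gene of the WAP family, averaged 8.36 ± 0.31 in F682-F695 and 9.32 ± 0.44 in F651-F659, the largest fall among genes that passed, at -0.96. Arl1, a GTPase of the Golgi, fell by 0.66 with an adjusted p of 0.00848. Hsp90b1, the gene of the endoplasmic reticulum chaperone GRP94, was the gene whose promoter held the stress element. It ran from 10.80 through 11.27 to 11.70 in F682-F695 and from 11.39 through 12.05 to 12.40 in F651-F659 (log2 difference -0.73 ± 0.16, adjusted p = 0.0161). Rbp4, the plasma retinol carrier, was the hepatocyte marker that passed, at 9.94 ± 0.41 in F682-F695 and 10.76 ± 0.41 in F651-F659. Bhmt, which remethylates homocysteine with betaine, fell by 0.87, but its call held in only 3 of 16 fits with 1 array left out. The remaining falls were those of Tax1bp1 (-0.95), Serinc1 (-0.80), Wsb1 (-0.80), Cox6c (-0.74), Ndufaf4 (-0.68) and Crls1 (-0.66), and of these Tax1bp1, Serinc1 and Cox6c kept the call in all 16. Without F651 and F653 the calls of Wfdc21, Eif3a and Arl1 held, while Tax1bp1 gave -0.83 (adjusted p = 0.0525) and Hsp90b1 -0.58 (adjusted p = 0.0803). The 3 other probes of Crls1, the cardiolipin synthase gene, gave 0.28, -0.05 and -0.07, none of which passed.

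**Figure D3:**
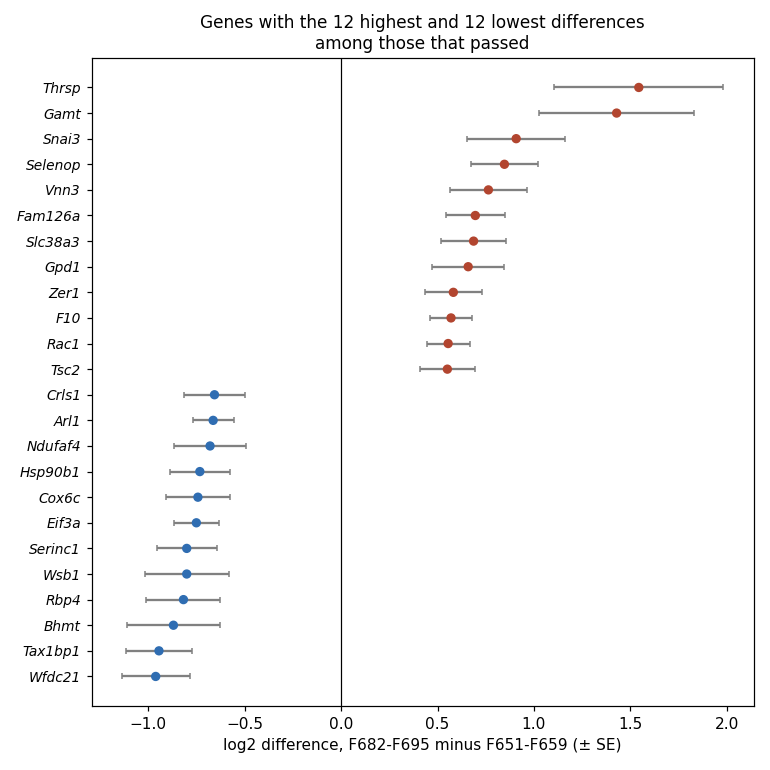
Log2 differences, F682-F695 minus F651-F659, with SE as bars, for the 12 highest (red) and 12 lowest (blue) genes among those that passed. Differences ran from 1.54 for Thrsp to -0.96 for Wfdc21.

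Of 17 tested genes of the mTOR complexes and their regulators, 1 rose and 1 fell (5.10% of all genes passed), and the median difference of the list was 0.01, the same as over all genes. Rheb, which activates mTORC1 when bound to GTP, had values of 10.34, 9.83, 10.34, 10.31, 10.19, 10.06, 10.20, 10.01 and 10.05 in F682-F695, against 10.66, 10.74, 10.80, 10.39, 10.55, 10.39 and 10.71 in F651-F659. Every F682-F695 array lay below every F651-F659 array, and the log2 difference was -0.46 ± 0.08 (adjusted p = 0.00967). Tsc2, the partner of Tsc1 that turns Rheb off, averaged 10.18 ± 0.26 in F682-F695 and 9.63 ± 0.35 in F651-F659 (difference 0.55 ± 0.14, adjusted p = 0.0356), and its second probe rose by 0.59. Mtor itself had a difference of 0.07 (adjusted p = 0.786) and Tsc1 of 0.02 (adjusted p = 0.896). Rheb kept its call in all 16 fits with 1 array left out and Tsc2 in 7. Without F651 and F653 neither passed, with Rheb at -0.41 (adjusted p = 0.0535) and Tsc2 at 0.46 (adjusted p = 0.134). After median scaling Tsc2 did not pass either, at 0.21 (adjusted p = 0.321), and the list held 0 higher and 4 lower genes.

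Autophagy and lysosome genes passed in 2 of 26 cases, both lower, where 3.53% of all genes were lower and 5.10% passed, and the list median was -0.03 (0.01 over all genes). Gabarap, one of the ubiquitin-like proteins that coat the autophagosome, had levels of 11.75, 11.56, 11.58, 11.64, 11.62, 11.65, 11.69, 11.65 and 11.45 in F682-F695. In F651-F659 they were 12.80, 11.83, 12.23, 11.97, 12.21, 11.83 and 12.08. The runs did not overlap, F651 lay furthest out, and the log2 difference was -0.51 ± 0.11 (adjusted p = 0.0165), or -0.36 without F651 and F653 (adjusted p = 0.0388). Tax1bp1, a receptor that brings ubiquitin-marked cargo to the autophagosome, ran from 9.03 to 10.05 in F682-F695 and from 9.95 to 10.93 in F651-F659. Map1lc3b, another coat protein gene, had a difference of -0.31 (adjusted p = 0.0912), and Sqstm1, the p62 receptor gene, of -0.01 (adjusted p = 0.949).

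**Figure D4:**
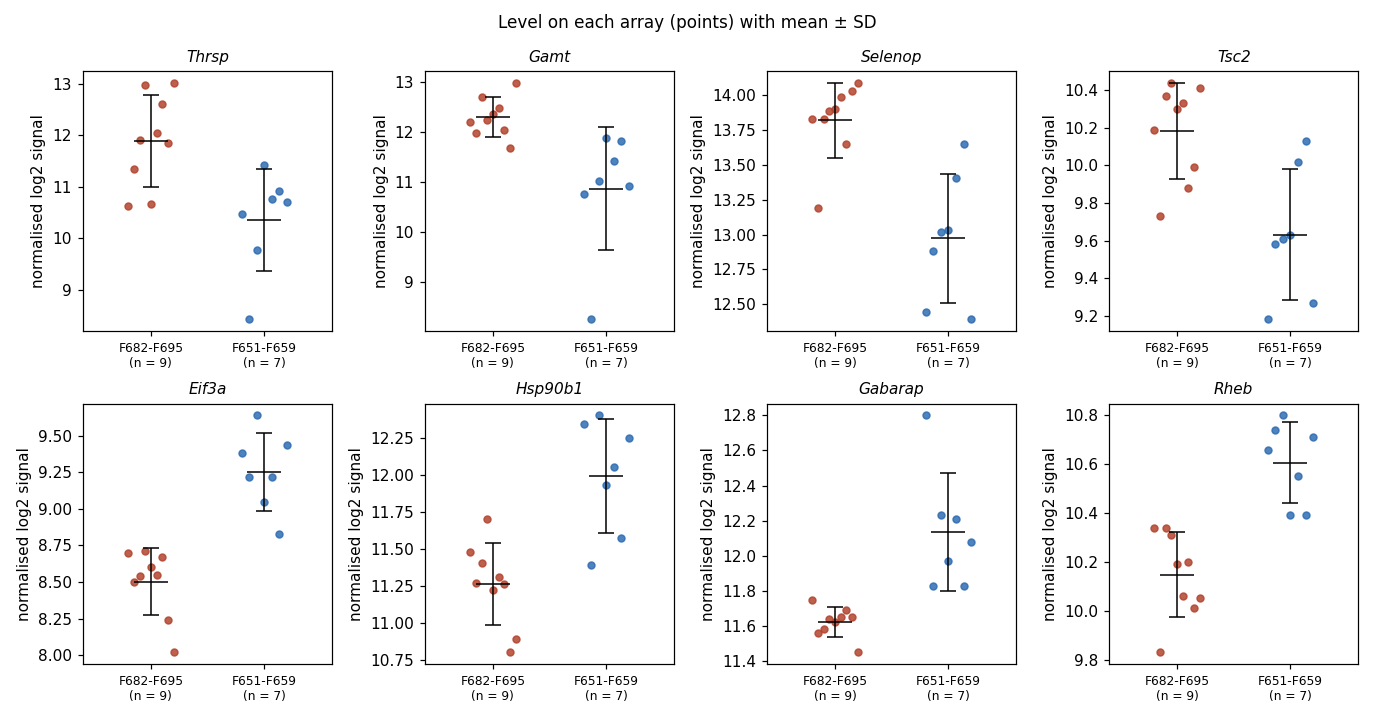
Normalised log2 signal on each array (points) with mean and SD for 4 genes higher (upper row) and 4 lower (lower row) in F682-F695 (red, n = 9) than in F651-F659 (blue, n = 7). Eif3a, Gabarap and Rheb did not overlap between the runs, while Thrsp, Gamt, Selenop, Tsc2 and Hsp90b1 did.

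Genes of protein synthesis, protein breakdown and splicing that passed are given list by list, where 1.57% of all genes were higher and 3.53% lower. Of 29 tested initiation and elongation factor genes, 3 fell and none rose: Eif3a, Eif4a2 (-0.65), which encodes an RNA helicase of the cap-binding complex, and Eif2s3x (-0.49), the gamma subunit of the factor that carries the initiator tRNA. The list median was 0.03. Eif2s3x averaged 9.31 ± 0.12 in F682-F695 and 9.80 ± 0.20 in F651-F659 (adjusted p = 0.00848). Of 30 genes of the large ribosomal subunit, Rpl27a (-0.49) and Rpl4 (-0.44) fell and Rpl29 (0.38) rose, and of 22 of the small subunit 0 passed in limma's fit while 3 had an unadjusted p under 0.05. Proteasome genes gave 1 in each direction out of 30, Psma3 (-0.47) and Psma7 (0.28), both subunits of the outer ring of the core particle. Among 25 splicing factor genes Hnrnpk (0.39), Snrpd2 (0.32) and Hnrnpa2b1 (0.27) rose and Srsf3 (-0.25) fell. Second probes gave -0.13 for Eif4a2 (adjusted p = 0.698), 0.17 for Rpl29 (adjusted p = 0.13) and 0.06 for Hnrnpk (adjusted p = 0.667). Those of Psma7 (0.19, adjusted p = 0.0689), Srsf3 (-0.28, adjusted p = 0.0919) and Hnrnpa2b1 (-0.17, adjusted p = 0.053) did not pass either. With 1 array left out, the calls on the brightest probes held in all 16 fits for Eif3a, Eif4a2, Eif2s3x, Rpl27a, Rpl4 and Snrpd2. They held in 14 for Psma3 and Hnrnpk, 8 for Psma7, 6 for Rpl29 and Hnrnpa2b1, and 4 for Srsf3.

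Mitochondrial genes that passed are given in the same way, where 1.57% of all genes were higher and 3.53% lower. Of 33 respiratory complex I genes 3 rose and none fell, with a median of 0.11. Ndufv3, a subunit of the NADH-binding arm, lay between 11.91 and 12.32 in F682-F695 and between 11.47 and 11.82 in F651-F659, with no overlap (log2 difference 0.32 ± 0.06, adjusted p = 0.0123). Its other probes gave 0.22 (adjusted p = 0.171) and 0.09 (adjusted p = 0.337). Ndufs6 (0.32) and Ndufa10 (0.30) were the others. In complexes II to V, 2 of 36 passed and both fell, Cox6c and Cox5a (-0.24), subunits of cytochrome c oxidase. Mrpl23 (0.31) and Mrpl28 (0.28) rose among 44 mitochondrial ribosome genes. With 1 array left out, the call held in all 16 fits for Ndufv3 and Cox6c. It held in 10 for Mrpl23, 9 for Ndufs6, 4 for Cox5a and 3 each for Ndufa10 and Mrpl28. After neqc background correction Ndufs6, Ndufa10, Cox5a, Mrpl23 and Mrpl28 did not pass (adjusted p between 0.0537 and 0.0806). Most rises, large and small, did not hold under median scaling, where 4 of the 24 named genes that rose still passed (Selenop, Snai3, Rac1 and Kdr). After neqc background correction 13 of the 24 passed. After median scaling Ndufv3, Ndufa10, Mrpl23, Mrpl28, Psma7, Snrpd2, Hnrnpa2b1 and Prf1 had differences between -0.088 and -0.013, and the complex I median was -0.17 with 6 genes called lower. The list medians also turned negative for fatty acid synthesis (-0.13), initiation and elongation factors (-0.23), mTOR regulators (-0.20), the mitochondrial ribosome (-0.27) and the proteasome (-0.25).

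Lipid synthesis genes spread widely within F651-F659, where F652 was often the lowest array. Of 17 fatty acid synthesis genes only Thrsp passed, and the list median was 0.16, or -0.01 without F652. Fads2, the delta-6 desaturase gene, ran from 9.42 to 11.53 in F682-F695 and from 7.79 to 10.40 in F651-F659 (log2 difference 1.02, adjusted p = 0.141, and 0.76 without F652). Of 16 cholesterol synthesis genes and SREBP2 targets, 15 had positive differences and 0 passed in limma's fit (3 at an unadjusted p under 0.05), with a median of 0.30. Without F652, 9 of the 16 were positive and 7 negative, with a median of 0.10, and Sqle (-0.23), Lss (-0.33), Msmo1 (-0.21) and Sc5d (-0.25) were among the negative ones. Hmgcs1, which makes HMG-CoA for the pathway, lay between 14.49 and 15.26 in F682-F695, against 11.80 in F652 and 13.92 to 15.15 in the other F651-F659 arrays. Its difference was 0.61 (adjusted p = 0.334), or 0.22 without F652 (adjusted p = 0.484). Insig1, whose protein restrains SREBP processing, was lowest in F652 too, at 8.77, against 9.63 to 10.88 on the other F651-F659 arrays and 10.23 to 11.22 in F682-F695. F652 also held the highest Ddit4, a stress-induced inhibitor of mTORC1, at 13.09 against at most 8.70 in the rest of F651-F659 and at most 10.18 in F682-F695.

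Inflammatory genes spread widely in both runs, and 0 of 19 acute phase genes passed in limma's fit (3 lower at an unadjusted p under 0.05), although 16 of 19 differences were negative and the median was -0.37. Saa1, the serum amyloid A gene, lay at 9.07, 12.74, 8.22, 7.85, 7.76, 7.59, 10.76, 9.41 and 7.70 in F682-F695. The F651-F659 arrays gave 11.65, 10.40, 10.38, 12.28, 8.20, 7.44 and 12.53. High and low livers were thus found in each run, and the log2 difference of -1.40 ± 0.86 had an adjusted p of 0.364. Orm2, an acute phase glycoprotein gene, differed by -1.21 (adjusted p = 0.474). Of 17 complement genes 0 passed (4 lower at an unadjusted p under 0.05), with a median of -0.20 (-0.12 without F659), and C8a gave -1.20 (adjusted p = 0.187). Of 13 neutrophil markers 0 passed in that fit or at an unadjusted p under 0.05, and S100a8 ran from 8.17 to 14.77 in F682-F695 and from 8.57 to 14.58 in F651-F659.

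Markers of other cell types passed in 2 cases, where 5.10% of all genes passed and 1.57% were higher. Prf1, the perforin gene of cytotoxic lymphocytes, rose by 0.23 as 1 of 9 tested T and NK cell markers. Its call held in 5 of 16 fits with 1 array left out. Kdr, a VEGF receptor gene of endothelium, rose by 0.21 as 1 of 17 sinusoidal endothelial markers. It was dim, at 6.762 in F682-F695 and 6.555 in F651-F659, below Y-linked Uty on the same arrays (7.055 and 7.044). The Kdr call held in 3 of those 16 fits and after median scaling (adjusted p = 0.0102), but not after neqc background correction (adjusted p = 0.0688). Vegfa, which encodes the ligand of that receptor, fell by 0.40 (8.82 ± 0.25 in F682-F695 and 9.22 ± 0.20 in F651-F659, adjusted p = 0.0427), while its second probe gave 0.10 (adjusted p = 0.633). The Vegfa call held in 5 of 16 fits with 1 array left out and after median scaling (adjusted p = 8.2e-04). It was lost after neqc background correction (adjusted p = 0.052) and without F651 and F653 (adjusted p = 0.0714). All 6 tested B and plasma cell markers had positive differences with a median of 0.54, of which 0 passed and 4 had an unadjusted p under 0.05. Their summed signal was 779 to 3519 in F682-F695 and 671 to 1365 in F651-F659. Fcmr, an IgM receptor gene, reached 10.40 in F682 and ran down to 7.28 in F682-F695, against 6.79 to 8.89 in F651-F659 (difference 1.11, adjusted p = 0.135). No erythroid, macrophage, stellate, cholangiocyte, pancreas or adipose marker passed, and none of the 10 muscle markers on the array was detected often enough to be tested.

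Single members passed in a few further lists, where 5.10% of all genes passed and 3.53% were lower. Clock, the transcription factor gene of the circadian oscillator, fell by 0.42, at 9.36 ± 0.18 in F682-F695 and 9.78 ± 0.18 in F651-F659 (adjusted p = 0.0151), as the only one of 12 core clock genes, and its second probe gave -0.07 (adjusted p = 0.65). Its partner Arntl gave -0.28 (adjusted p = 0.247) and Per1 -0.15 (adjusted p = 0.805). Baat, which joins bile acids to glycine or taurine, fell by 0.54 as 1 of 16 bile acid genes (adjusted p = 0.0442). Its call held in 4 of 16 fits with 1 array left out. Txn1, the thioredoxin gene, fell by 0.32 as 1 of 22 antioxidant genes, its second probe giving 0.01. H2-D1, an MHC class I gene, fell by 0.27 among 10 antigen presentation genes. Both were dim, where Y-linked Uty averaged 7.055 in F682-F695 and 7.044 in F651-F659. Txn1 averaged 7.236 in F682-F695 and 7.557 in F651-F659, and H2-D1 7.231 and 7.497 in that order. With 1 array left out, the call held in 6 of 16 fits for Txn1 and in 7 for H2-D1. Hsp90b1 was the only one of 15 unfolded protein response genes to pass, where Hspa5, the gene of the chaperone BiP, had a difference of -0.18 (adjusted p = 0.101) on a dim probe.

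Other probes of the same genes gave a measure of how far these values hold beyond a single probe. Of 445 genes that passed, 144 had another tested probe. Of their 213 other probes, 167 had the same sign and 46 the opposite sign. In the same direction 40 passed and in the opposite one 2, where 5.22% of all tested transcripts passed. Such agreement was not worked out for genes that did not pass. Keap1, which holds the antioxidant factor NRF2 for degradation, had positive differences at all 4 of its probes, 0.27, 0.63, 0.29 and 0.38, of which 0.63 and 0.38 passed (chosen after its values were seen).

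The genes that differed were brighter than the rest. The median log2 level was 9.27 for the 137 higher genes and 8.77 for the 308 lower ones, against 8.00 for all tested genes, and the share that passed was 0.802% in the dimmest and 8.48% in the next to brightest of 5 equal bins of signal. Higher genes were shorter, with a median gene length of 14.6 kb, and lower genes longer, at 27.7 kb, against 20.9 kb for all tested genes. Of the promoters with a sequence, 4.24% of higher and 10.3% of lower genes held an E-box, against 8.42% of all. Promoter GC content was 58.8% in higher, 60.8% in lower and 59.2% in all tested genes. These shares are descriptions and were not tested.

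Between the runs of control males nothing passed. For M716-M730 minus M366-M374, limma called 0 of 12442 transcripts (0%), 640 had an unadjusted p under 0.05, and the smallest adjusted p was 0.912. The labels tie neither male run to a female one, and whether the female and male differences themselves differ was not tested. Rheb averaged 10.42 ± 0.13 in M716-M730 and 10.64 ± 0.15 in M366-M374 (log2 difference -0.22, adjusted p = 0.912), and Thrsp differed by 0.51 (adjusted p = 0.972). Over the transcripts that were higher in F682-F695 the median male difference was 0.02, and over those that were lower it was -0.04.

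The choice of control run changed the comparison with Rapa females. Against F682-F695, 3684 transcripts passed in the 21 Rapa females (29.6%), 1878 higher (15.1%) and 1806 lower (14.5%). Against F651-F659, 5652 passed (45.4%), 3021 higher (24.3%) and 2631 lower (21.1%). Both comparisons use the same Rapa arrays, so their values are set side by side only. The genes named below were picked because they passed between the control runs. The gap between their values against each run therefore repeats that difference and adds no evidence. Once the detected share entered as a covariate, the counts were 1112 against F682-F695 and 608 against F651-F659. That share was 39.9% ± 1.31 in Rapa females, below both control runs, so these fits cannot separate it from the diet. Thrsp was 0.18 higher in Rapa females than in F682-F695 (adjusted p = 0.727) and 1.73 higher than in F651-F659 (adjusted p = 0.00116). Gamt likewise gave 0.18 against F682-F695 (adjusted p = 0.375) and 1.61 against F651-F659 (adjusted p = 2.9e-05). Selenop gave -0.10 against F682-F695 (adjusted p = 0.503) and 0.75 against F651-F659 (adjusted p = 4.8e-05). Rheb, Hsp90b1, Tax1bp1 and Eif3a passed as lower in Rapa females against either run. Their log2 differences against F682-F695 were -0.64 for Rheb, -0.90 for Hsp90b1, -1.12 for Tax1bp1 and -0.65 for Eif3a. Against F651-F659 they were -1.10 for Rheb, -1.63 for Hsp90b1, -2.06 for Tax1bp1 and -1.40 for Eif3a. Gabarap gave -0.06 against F682-F695 (adjusted p = 0.513) and -0.58 against F651-F659 (adjusted p = 3.3e-05).

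Rapa-2 and Rapa-1 males share no array with the control females. Their difference was therefore read over the same transcripts, a step added after seeing the data. Some sex chromosome genes also separated these males by limma. Y-linked Eif2s3y averaged 8.96 for Rapa-1 but only 7.10 for Rapa-2 (log2 difference -1.86, adjusted p = 1.2e-10). Kdm5d averaged 6.995 and 6.536 in that order (-0.459, adjusted p = 7.0e-05). Uty (-0.082, adjusted p = 0.409) and Xist (-0.016, adjusted p = 0.805) did not pass. The cause was not tested. Rapa-2 minus Rapa-1 males gave 4228 passing transcripts (34.0% of those tested), and 19.2% of the tested transcripts were higher and 14.8% lower in Rapa-2. Of the 209 transcripts higher in F682-F695, 100 (47.8%) were higher in Rapa-2 males and 1 (0.478%) lower. Of the 441 lower in F682-F695, 204 (46.3%) were lower in Rapa-2 males and 67 (15.2%) higher. The brightest probes began at 25500 ± 1660 in Rapa-2 males and 40840 ± 3690 in Rapa-1 males, so this array measure moved with both comparisons, and its part was not tested there. Baat averaged 7.83 ± 0.26 in Rapa-2 males and 10.46 ± 0.18 in Rapa-1 males, with 10.39 and 10.37 in control males M716-M730 and M366-M374. Hsp90b1 averaged 10.62 ± 0.31 in Rapa-2 males and 12.05 ± 0.20 in Rapa-1 males, and Tax1bp1 averaged 8.80 ± 0.19 in Rapa-2 males and 10.12 ± 0.18 in Rapa-1 males. Rapa females averaged 7.63 for Baat, 10.36 for Hsp90b1 and 8.40 for Tax1bp1, below the means of both control runs.

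**Figure D5:**
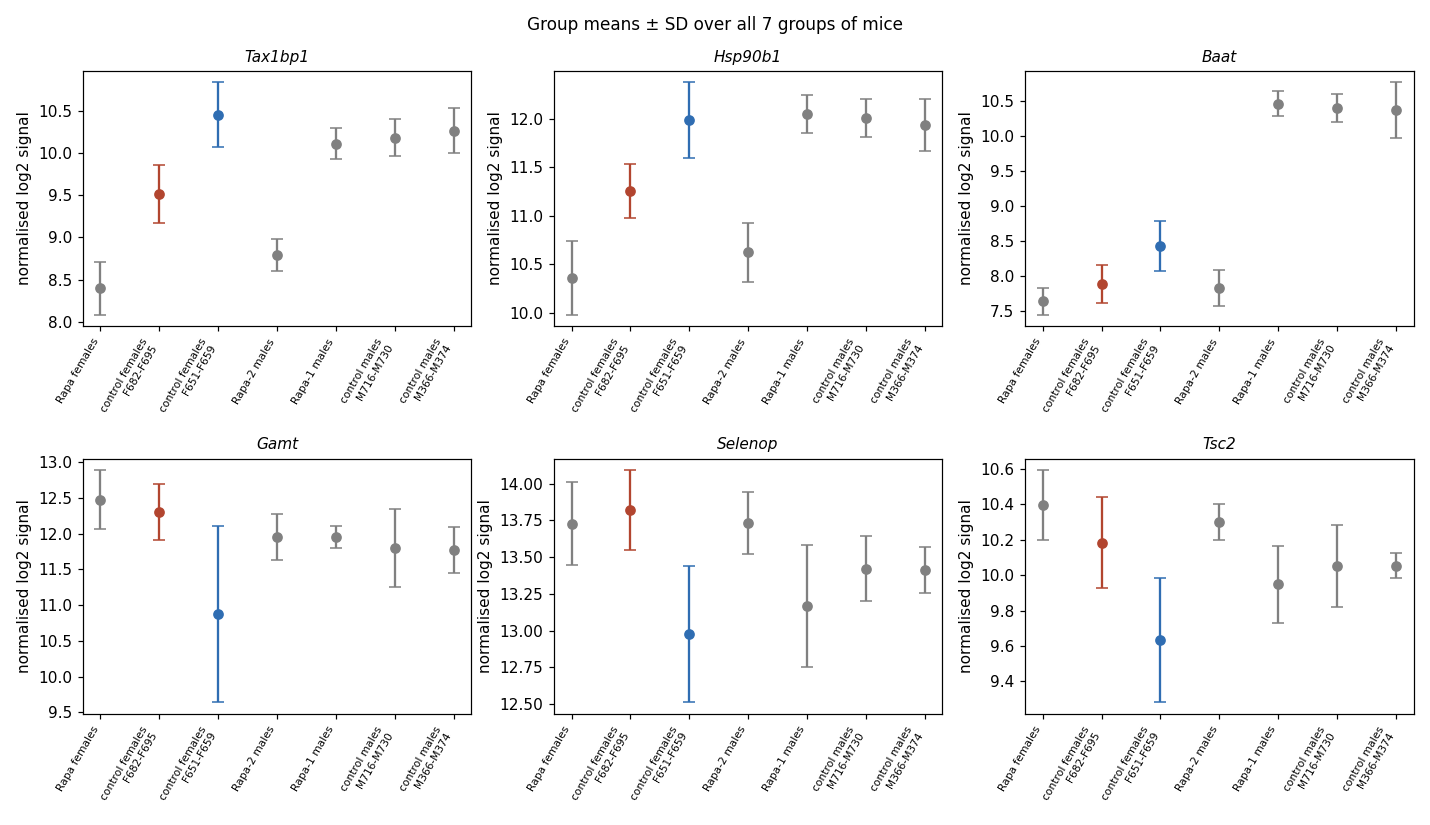
Mean log2 signal with SD for 6 genes in Rapa females (n = 21), control females F682-F695 (red, n = 9) and F651-F659 (blue, n = 7), Rapa-2 (n = 6) and Rapa-1 (n = 7) males, and control males M716-M730 (n = 12) and M366-M374 (n = 7). Baat averaged 7.88 in F682-F695 and 8.42 in F651-F659, where control males M716-M730 averaged 10.39, and Gamt had its lowest mean in F651-F659.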

How the data were processed

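Total RNA of 69 mouse livers was labelled and read by the authors on Illumina MouseRef-8 bead arrays. The deposited non-normalised values are mean bead signal intensity per probe, and the deposited detection score equals 1 minus the detection p. The authors also deposited log2 signals after quantile normalisation, and the same step run here matched them with r of 0.99992 on every array. Of 25697 probes, 12442 with detection p under 0.05 on at least 13 of 69 arrays were tested by limma (version 3.58.1, R version 4.3.3) between the sets compared, with Benjamini-Hochberg adjustment. Each mouse gave 1 array, so precision is limited by how many arrays a set holds. Symbols came from the platform annotation, updated from RefSeq for 23962 probes; 32 of the passing transcripts had none. A gene is represented by its brightest tested probe. Named genes are the 12 highest and 12 lowest that passed, up to 4 passing members of each of 58 gene lists, and sex chromosome genes. Members and lists were chosen with earlier results of these data known. Alternatives were other scalings, neqc background correction with an offset of 16, detection filters, fold minimums, the methods' t-test with pooled variance, 1 model of all arrays, array weights, array measures as covariates and each array left out. The fits were tested on simulated data. Figures were drawn with matplotlib 3.10.9.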

Additional observations from a re-analysis of the deposited data

Results flagged for a closer look

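Among 116 sets of values, formed by 54 named genes and 4 array measures in each run, 12 had 1 array far from the others by Dixon's criterion, where chance gives about 1 in 20. In F682-F695, F694 was lowest in the dimmest Actb probes (8.36, next 9.23) and in Xist (7.54, next 7.89). F683 was lowest in Selenop (13.19, next 13.65). F695 was highest in Ndufv3 (12.32, next 12.10), Mrpl28 (11.40, next 11.17) and Kdm5d (6.69, next 6.54). In F651-F659, F651 was highest in the signal at which the brightest 0.1% of probes begin (33500, next 30346), in Srsf3 (8.25, next 7.98) and in Gabarap (12.80, next 12.23). F652 was lowest in Gamt (8.26, next 10.76) and highest in Clock (10.15, next 9.80). F659 was lowest in Psma7 (10.61, next 10.92).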

How the results depend on the processing

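The count of 650 stayed within 1.5 times under quantile normalisation of the 16 arrays alone, neqc, the authors' processed values, no or other detection filters, the methods' t-test after Benjamini-Hochberg, array weights, no fold minimum and the raw median as a covariate. Median scaling gave 3155 (20 higher, 3135 lower), the methods' t-test without adjustment 1740 (763 higher, 977 lower), 1 model of all 69 arrays 1423 (583 higher, 840 lower), and a minimum of 1.5-fold 46 (14 higher, 32 lower). The brightest signal, the detected share or, added after seeing the data, the dimmest Actb probes as a covariate gave 0, with 1364, 2186 and 2114 at an unadjusted p under 0.05. Each of these covariates moved with the run, so the fits cannot separate run from measure. Leaving out F651 and F653, also added, gave 89 (17 higher, 72 lower). Higher transcripts alone numbered 128 without a detection filter and 139 with the raw median as a covariate. Single arrays left out gave 322 to 788 in all, 79 to 295 higher and 241 to 502 lower. Of 50 named genes that passed, 20 kept the call with each array left out and 8 (Wfdc21, Eif3a, Arl1, Clock, Rpl27a, Eif2s3x, Ndufv3, Gabarap) without F651 and F653. After median scaling the sign turned for Ndufv3 (-0.013), Ndufa10 (-0.038), Mrpl23 (-0.042), Mrpl28 (-0.072), Psma7 (-0.066), Snrpd2 (-0.022), Hnrnpa2b1 (-0.088) and Prf1 (-0.019). Rapa females minus F682-F695 gave 455 at 1.5-fold and 1112 with the detected share as a covariate, and minus F651-F659 1353 and 608. The male runs gave 0 in every setting tried, with 329 to 3466 at an unadjusted p under 0.05. The difference in raw median signal, 3.95 over all probes, was -27.7 over tested probes (exact permutation p = 0.0589). The cause was not tested for any of these. No paired analysis was possible because the runs share no replicate number. Weak signal near background limits the dimmest probes.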

Other observations

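Further genes were among the 94 (1.08% of 8729) whose runs did not overlap, and those given here were picked after their values had been seen. Trip12, a ubiquitin ligase gene, differed by -0.56 (adjusted p = 0.00848), Cul4b, a scaffold of a ligase family, by -0.46 (adjusted p = 0.0123) and Faf2, which helps draw damaged proteins from the endoplasmic reticulum, by -0.65 (adjusted p = 0.0123). Atox1, the copper chaperone gene, was 0.46 higher in F682-F695 without overlap (adjusted p = 0.00848). Ythdc1, a reader of methylated adenosine in RNA, differed by -0.52 (adjusted p = 0.00848).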
